A study of Mus musculus with 16 samples.

Results

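Macrophages that have eaten dying cells must dispose of the cholesterol taken up with them, and 10 genes of that route were followed here. They are the transporters Abca1 and Abcg1, the lipid carrier Apoe, the sterol-sensing receptors Nr1h3 (LXRα) and Nr1h2 (LXRβ), their partner Rxra, the fatty acid receptors Ppard and Pparg, the ubiquitin ligase Mylip and the lipase Lpl. The genes were listed by name for their known roles, at a point when earlier results of these data were known. Among 55416 gene IDs in the count table, 25663 had a count in some library and 14168 passed the filter on low counts, and all 10 genes were among those tested.

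The RNA was that of mouse macrophages matured from Hoxb8 cells, a bone marrow line in which the transcription factor Hoxb8 keeps progenitors dividing. They were studied alone and after 45, 90 and 180 min together with dying (apoptotic) Jurkat cells, which derive from a human T cell leukaemia. Each of these 4 groups held 4 libraries of total RNA depleted of ribosomal RNA. The groups share the 1 cell line, and the labels give no further treatment, no separate cultures within a group and no harvest time for the macrophages kept alone. The spread behind each p-value is therefore that of these samples and may be technical, and the effect of the apoptotic cells cannot be told apart from that of time in culture. In bulk RNA, fewer cells of a type and less RNA per cell cannot be told apart either.

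LXRs are nuclear receptors that bind oxidised cholesterol, pair with RXR and switch on genes that carry cholesterol out of the cell. PPARs are related receptors that bind fatty acids, also pair with RXR, and govern fat storage and burning as well as many macrophage functions. In macrophages, PPARγ and LXR are both known to act in the clearance of apoptotic cells and in the cholesterol efflux that follows it.

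Library totals ranged from 10.7 M to 41.7 M counts, and the 10 genes together held 0.345% to 0.381% of the counts of a library. All 12 macrophage markers looked at had counts, summing to between 10591 and 13282 CPM (counts scaled to library size) in every library. Of 12 mouse T cell markers, 5 were at 0 in all libraries (Cd3e, Cd3g, Cd2, Ptcra and Bcl11b) and the sum of the list was at most 15.7 CPM, nearly all of it Cd28. That sum was 11.3 to 15.7 CPM at 180 min and 11.7 to 15.1 CPM in macrophages alone. These mouse genes do not measure human RNA, and whether reads of the human cells entered the counts was not tested. Neutrophil, dendritic cell and B cell lists summed to at most 4.43, 1.01 and 3.12 CPM. The progenitor list summed to 19.1 to 33.6 CPM, nearly all of it Hoxb8. The mean share of counts from mitochondrial genes was 4.45% in macrophages alone, 3.54% at 45 min, 5.88% at 90 min and 7.0% at 180 min. With those genes left out of totals and tests, every call on the 10 genes below was kept.

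Over the 3 times together, all 10 genes changed, while 44.6% of all genes tested did (quasi-likelihood test of edgeR, called at a Benjamini-Hochberg adjusted p under 0.05). Most of the changes were small. Of the 60 fold changes, those of Ppard at 180 min against macrophages alone and against 45 min were the only 2 past 2-fold. At 45 min 1 gene was higher than in macrophages alone (Nr1h2) and 2 were lower (Abca1 and Mylip), so 3 of 10 were called, where 10.8% of all genes were (4.69% higher and 6.11% lower). At 90 min 2 were higher (Nr1h3 and Ppard) and 4 lower (Abca1, Abcg1, Apoe and Mylip), where 21.1% of all genes were called (11.1% higher and 9.97% lower). At 180 min 3 were higher (Nr1h3, Ppard and Rxra) and 4 lower (Abca1, Apoe, Pparg and Lpl), where 31.1% of all genes were called (15.1% higher and the rest lower). The median log2 change of the 10 genes was 0.01, -0.06 and 0.00 at the 3 times, and that of all genes was 0.00, 0.00 and 0.01. These 3 comparisons share the same control libraries.

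**Figure D1:**
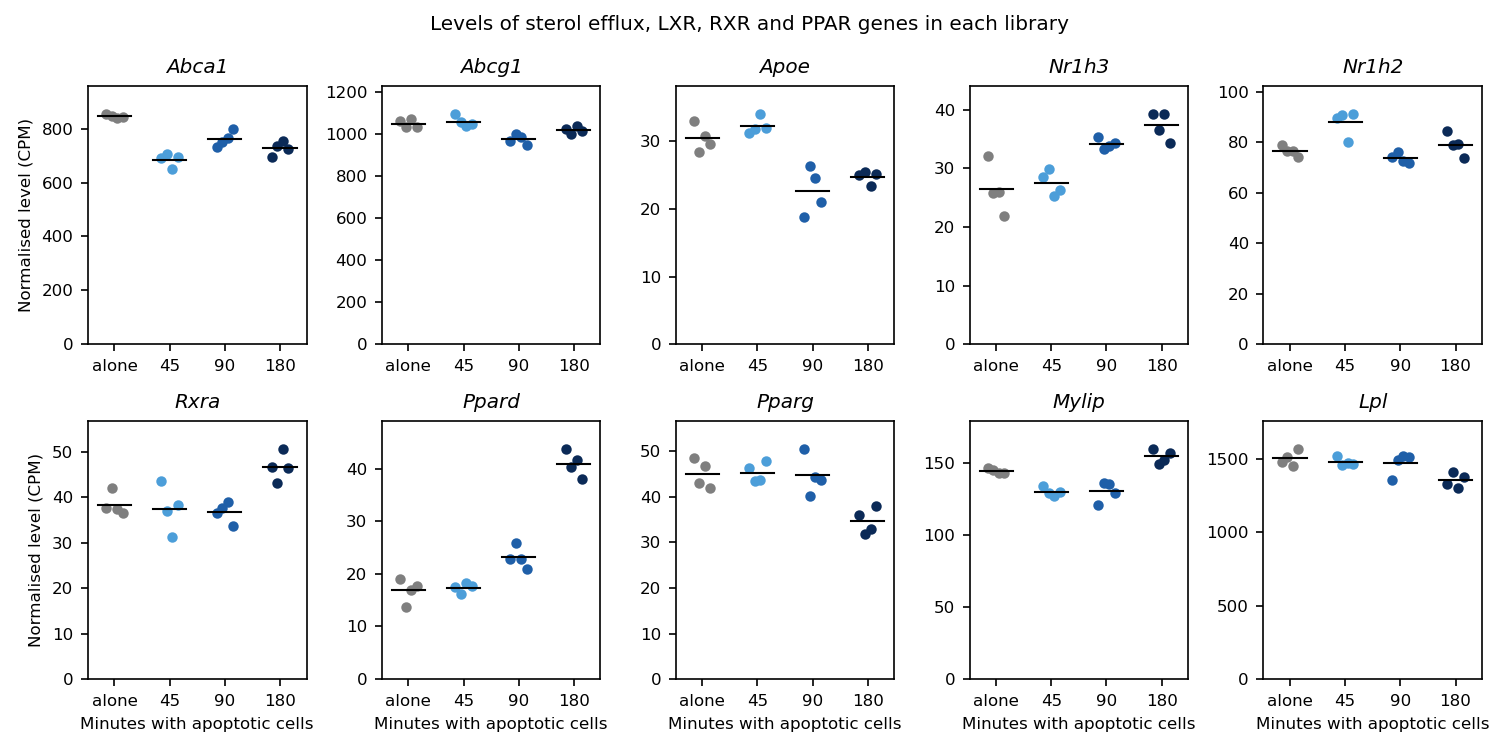
Level of each gene in CPM on linear axes from 0, with 1 point per library, a line at the group mean, and groups of 4 libraries ordered from macrophages alone to 180 min. The Ppard points at 180 min (38.0 to 43.8 CPM) lie above every other Ppard point, and all 4 macrophage-alone points of Abca1 (838.6 to 855.4 CPM) lie above those of the other groups.

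Per kilobase of exon, which allows genes to be compared, Abcg1 and Lpl were the most abundant of the set in macrophages alone, with 143.9 ± 2.66 and 143.6 ± 4.94 CPM per kb (SD, n = 4), and their libraries overlapped. Abca1 followed with 81.6 ± 0.673 CPM per kb, then Mylip with 44.7 ± 0.446 and Nr1h2 with 22.8 ± 0.625 CPM per kb. Pparg (15.3 ± 1.06 CPM per kb) and Apoe (14.2 ± 0.928 CPM per kb) overlapped each other. Nr1h3 stood at 10.5 ± 1.68, Rxra at 7.03 ± 0.443 and Ppard lowest at 2.24 ± 0.306 CPM per kb, and no neighbours among these 3 overlapped. At 180 min the order had changed in the middle. Nr1h3, with 14.8 ± 0.968 CPM per kb, lay above Pparg (11.7 ± 0.942) and Apoe (11.6 ± 0.431), and its lowest library (13.6) was above the highest of theirs (12.8). Ppard was still the lowest of the 10 per kilobase, at 5.45 ± 0.323 CPM per kb, a place that rests on the exon lengths used. In CPM, not divided by length, Ppard averaged 40.9 ± 2.43 at 180 min. Nr1h3 averaged 37.3 ± 2.44 CPM there, with libraries that overlapped those of Ppard, Pparg 34.7 ± 2.78 and Apoe 24.8 ± 0.921 CPM.

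Cholesterol leaves a macrophage mainly through a pair of pumps and a protein carrier. Abca1 loads cholesterol onto lipid-poor apolipoprotein, Abcg1 passes it to mature high-density lipoprotein, and Apoe is secreted by macrophages as an acceptor. All 3 are known LXR targets. The promoter of Abca1 is printed because it was the only one of the set with a match to the LXR-type repeat described below. The 120 bases before its start site, chr4:53159896-53160015 on the minus strand (RefSeq, build GRCm38.p6), read as follows, with the match in capitals.
Abca1: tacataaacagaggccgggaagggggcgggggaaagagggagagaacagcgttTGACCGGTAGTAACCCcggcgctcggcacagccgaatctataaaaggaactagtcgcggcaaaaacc
The capitals lie 67 to 52 bases before the start and match, on the opposite strand, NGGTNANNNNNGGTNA, a loose form of the direct repeat with 4 spacer bases (DR4) that LXR with RXR is known to bind. Both strands from 250 bases before to 50 bases after each start were searched. The repeat occurred in 1 of the 14 promoter entries that 8 of the genes have in the RefSeq table, and in 0.718% of all 32851 promoters. Abcg1 and Lpl had no entry. A match is a description of letters, not of binding.

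Abca1 (ENSMUSG00000015243) fell at every time. Its levels were 855.4, 845.6, 838.6 and 844.2 CPM in macrophages alone, 689.3, 706.0, 650.7 and 694.7 CPM at 45 min, 732.3, 750.3, 764.9 and 798.0 CPM at 90 min, and 693.6, 735.1, 753.9 and 725.0 CPM at 180 min. Every library with apoptotic cells was below every library without them, and the lowest group was that at 45 min. Against macrophages alone the log2 change was -0.30 (SE 0.039, adjusted p = 2.99e-08) at 45 min, -0.15 (SE 0.039, adjusted p = 0.00264) at 90 min and -0.22 (SE 0.039, adjusted p = 6.83e-06) at 180 min. It was higher at 90 min than at 45 min by 0.15 on the log2 scale (SE 0.039, adjusted p = 0.0020), a call lost when a length and GC trend was removed across genes (0.08, adjusted p = 0.0740). The falls against macrophages alone were called in all 24 alternative settings, at 45 min with log2 changes from -0.31 to -0.22.

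Abcg1 (ENSMUSG00000024030) was called against macrophages alone at 90 min only. It ranged from 1034 to 1072 CPM in macrophages alone, from 1039 to 1098 CPM at 45 min, from 947.8 to 1000.4 CPM at 90 min and from 1000.4 to 1038 CPM at 180 min. The group at 90 min lay below that of macrophages alone without overlap, and the other 2 overlapped it. The fall at 90 min was 0.11 on the log2 scale in size (-0.11, SE 0.036, adjusted p = 0.0261) and the call was lost when library 3 of macrophages alone (-0.10, adjusted p = 0.0794) or library 4 of 90 min (-0.10, adjusted p = 0.0759) was left out. At 45 min and 180 min the difference was not called, with 95% intervals of -0.06 to 0.08 and -0.11 to 0.03 on the log2 scale.

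Apoe (ENSMUSG00000002985) fell at 90 and 180 min. In macrophages alone it had 33.1, 28.4, 30.7 and 29.6 CPM, at 45 min 31.3, 31.8, 34.1 and 32.0 CPM, at 90 min 18.8, 26.3, 24.6 and 21.01 CPM, and at 180 min 25.1, 25.5, 23.5 and 25.1 CPM. The 2 later groups lay wholly below the 2 earlier ones. The log2 change from macrophages alone was -0.42 (SE 0.088, adjusted p = 0.000178) at 90 min and -0.30 (SE 0.086, adjusted p = 0.00492) at 180 min, and at 45 min it was not called (0.08, SE 0.082, adjusted p = 0.619). From 45 min the fall was larger, -0.51 (SE 0.087, adjusted p = 6.10e-06) at 90 min. Its difference between 180 and 90 min was not called (0.12, 95% interval -0.05 to 0.30).

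The sterol receptors come in 2 forms. Nr1h3 (ENSMUSG00000002108) encodes LXRα, the form concentrated in macrophages, liver and fat, and Nr1h2 (ENSMUSG00000060601) encodes LXRβ, which is present in most tissues. Nr1h3 had 32.1, 25.8, 26.02 and 21.9 CPM in macrophages alone, 28.5, 29.8, 25.3 and 26.3 CPM at 45 min, 35.3, 33.3, 33.7 and 34.3 CPM at 90 min, and 39.3, 36.5, 39.3 and 34.3 CPM at 180 min. The groups at 90 and 180 min lay above both earlier groups. Its log2 rise over macrophages alone was 0.36 (SE 0.086, adjusted p = 0.00121) at 90 min and 0.49 (SE 0.085, adjusted p = 4.61e-06) at 180 min, with a difference of 0.05 (SE 0.084, adjusted p = 0.805) at 45 min. A noncoding gene, Gm13783, overlaps exons of Nr1h3 on the same strand, so reads of the 2 could be shared. Exons of the other members overlap no exons of another gene in GENCODE M21, and overlaps outside exons were not looked for.

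Nr1h2 was called against macrophages alone at 45 min. It had 79.1, 76.7, 76.3 and 74.0 CPM in macrophages alone, 89.8, 90.8, 80.1 and 91.3 CPM at 45 min, 74.0, 76.2, 72.6 and 71.9 CPM at 90 min, and 84.3, 79.0, 79.4 and 73.7 CPM at 180 min. Only the group at 45 min did not overlap that of macrophages alone, and its library 3 lay closest to it. The log2 rise at 45 min was 0.20 (SE 0.055, adjusted p = 0.00921), and it was not called once the length and GC trend was removed (0.08, adjusted p = 0.394, and 0.00167 to 0.394 over all alternatives). That setting instead called Nr1h2 lower at 90 min than in macrophages alone (-0.14, adjusted p = 0.0478). Between times it was lower at 90 than at 45 min (-0.26, SE 0.056, adjusted p = 0.000313).

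Within each library the ratio of LXRα to LXRβ transcripts, taken per kilobase of exon, does not depend on the scaling of that library. It was 0.629 ± 0.0209 at 180 min against 0.460 ± 0.0607 in macrophages alone (SD, n = 4 each), a log2 difference of 0.46. At 90 min it was 0.619 ± 0.0251 against the same 0.460 ± 0.0607. Both groups lay above that of macrophages alone with no overlap (exact permutation test, 2-sided p = 0.0286, the smallest that 4 against 4 allows, and 0.0429 adjusted over 6 tests). At 45 min the ratio was 0.417 ± 0.0232, a log2 difference of -0.13 that was within the spread (exact permutation test, p = 0.257, adjusted 0.309). LXRβ thus remained the more abundant transcript per kilobase in every library.

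Rxra (ENSMUSG00000015846) encodes the partner that both LXRs and PPARs need to bind DNA. It had 37.6, 41.9, 37.4 and 36.6 CPM in macrophages alone, 43.5, 36.9, 31.1 and 38.4 CPM at 45 min, 36.6, 37.6, 38.8 and 33.6 CPM at 90 min, and 46.6, 43.0, 50.7 and 46.3 CPM at 180 min. At 180 min every library was above all of macrophages alone and of 90 min, while 1 library of 45 min overlapped it. The log2 rise at 180 min was 0.29 (SE 0.078, adjusted p = 0.00296) over macrophages alone and 0.35 (SE 0.080, adjusted p = 0.000972) over 90 min. At 45 and 90 min the differences from macrophages alone were not called, with 95% intervals of -0.18 to 0.12 and -0.22 to 0.09.

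The largest change of the set was that of Ppard (ENSMUSG00000002250), which encodes PPARδ, a fatty acid receptor of wide distribution that favours fat burning. Its promoter is printed because it held a match to another searched sequence, GCGNGGGCG, which the early growth response factors are known to bind. The 120 bases before the start, chr17:28232634-28232753 on the plus strand (RefSeq, build GRCm38.p6), have that match in capitals.
Ppard: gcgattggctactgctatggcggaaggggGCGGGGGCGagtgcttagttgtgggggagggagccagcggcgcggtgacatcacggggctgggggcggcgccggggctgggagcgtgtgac
The match lies 91 to 83 bases before the start. It occurred in 2 of the 14 entries, the other being 1 of Rxra, 12 to 20 bases after the start, and in 5.55% of all promoters. The pattern NGGTNANNGGTNA, a loose direct repeat with 1 spacer base (DR1) of the kind that PPAR with RXR binds, was in none of the 14 entries and in 1.1% of all promoters, so nothing follows from these letters about the factor.

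Ppard had 19.1, 13.7, 16.9 and 17.6 CPM in macrophages alone, 17.5, 16.1, 18.3 and 17.6 CPM at 45 min, 22.9, 25.95, 22.8 and 20.95 CPM at 90 min, and 43.8, 40.3, 41.5 and 38.0 CPM at 180 min. The groups of macrophages alone and 45 min overlapped, that at 90 min lay above both, and that at 180 min lay above all. Against macrophages alone the log2 change was 0.46 (SE 0.095, adjusted p = 0.000173) at 90 min and 1.28 (SE 0.092, adjusted p = 4.29e-18) at 180 min, which is 2.43-fold. It was 0.04 (SE 0.092, adjusted p = 0.841) at 45 min. From 90 to 180 min it rose by a further 0.82 (SE 0.092, adjusted p = 1.90e-10). All of these rises were called in each of the 24 alternatives, the one at 180 min with log2 changes from 1.20 to 1.35.

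Pparg (ENSMUSG00000000440), which encodes the fat-cell and macrophage receptor PPARγ, fell at 180 min. It had 48.6, 43.1, 46.8 and 41.9 CPM in macrophages alone, 46.2, 43.5, 43.7 and 47.9 CPM at 45 min, 50.6, 40.2, 44.3 and 43.7 CPM at 90 min, and 36.0, 31.8, 33.0 and 37.9 CPM at 180 min. The first 3 groups overlapped and the last lay below all of them. The log2 change at 180 min was -0.38 (SE 0.074, adjusted p = 4.34e-05) against macrophages alone and -0.36 (SE 0.076, adjusted p = 0.000394) against 90 min. At 45 and 90 min it was 0.01 and -0.02, with 95% intervals of -0.13 to 0.15 and -0.16 to 0.13.

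Per kilobase, the ratio of Ppard to Pparg within a library was 0.467 ± 0.0491 at 180 min against 0.147 ± 0.0176 in macrophages alone (SD, n = 4 each), a log2 difference of 1.67. At 90 min it was 0.206 ± 0.0339 against 0.147 ± 0.0176 in macrophages alone, a log2 difference of 0.48. Neither group overlapped that of macrophages alone (exact permutation test, 2-sided p = 0.0286 each, the smallest the design allows, and 0.0429 adjusted over 6 tests). At 45 min the ratio was 0.151 ± 0.00947 (exact permutation test, p = 0.714). Pparg remained the more abundant of the pair per kilobase in every library. That order rests on the merged exon lengths used, 7.514 kb for Ppard and 2.953 kb for Pparg. In CPM, not divided by length, Ppard lay above Pparg at 180 min (38.0 to 43.8 against 31.8 to 37.9 CPM).

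**Figure D2:**
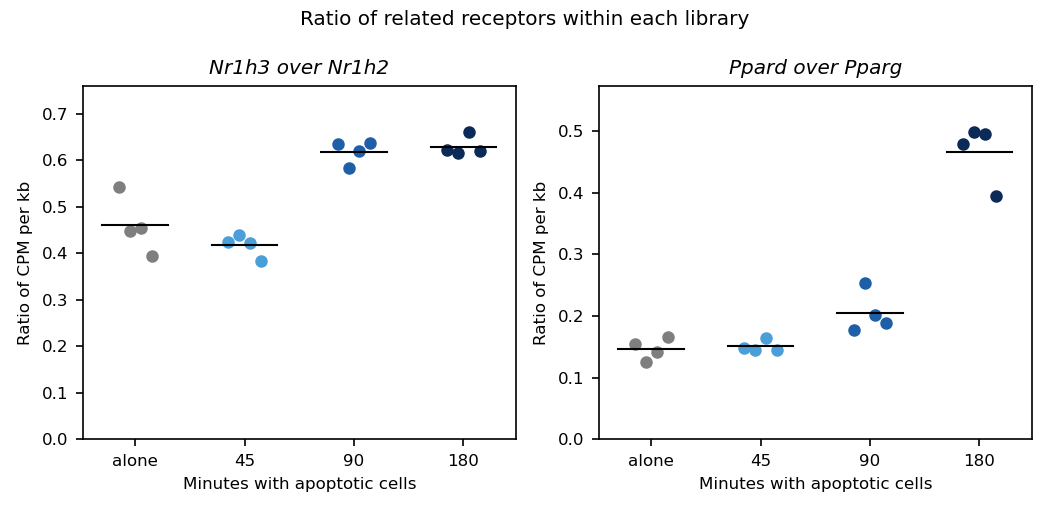
Ratio of Nr1h3 to Nr1h2 (left) and of Ppard to Pparg (right) within each library, in CPM per kilobase on linear axes from 0, with a line at the mean of the 4 libraries of each group. Both ratios are higher at 90 and 180 min than in macrophages alone, with means of 0.619 and 0.629 against 0.460 for the first and of 0.206 and 0.467 against 0.147 for the second.

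Among the effectors, Mylip (ENSMUSG00000038175) encodes an LXR-induced ubiquitin ligase that marks lipoprotein receptors for breakdown, and Lpl (ENSMUSG00000015568) encodes the lipase that frees fatty acids from triglyceride-rich lipoproteins. Mylip had 146.2, 145.3, 143.3 and 143.4 CPM in macrophages alone, 134.0, 129.4, 126.8 and 130.0 CPM at 45 min, 121.2, 136.2, 135.4 and 129.0 CPM at 90 min, and 160.1, 149.4, 152.3 and 157.3 CPM at 180 min. No group with apoptotic cells overlapped that of macrophages alone, with 2 below it and the last above it. The log2 change against macrophages alone was -0.15 (SE 0.047, adjusted p = 0.0243) at 45 min and -0.15 (SE 0.048, adjusted p = 0.0198) at 90 min, and at 180 min it was 0.10 (SE 0.047) and not called (adjusted p = 0.109). Between 90 and 180 min Mylip rose by 0.25 (SE 0.048, adjusted p = 0.000111). The call at 45 min was lost in 12 of 24 alternatives, among them the omission of any 1 library of either group (adjusted p 0.00429 to 0.129 over all), and that at 90 min without library 1 of 90 min (-0.13, adjusted p = 0.0646).

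Lpl ranged from 1452 to 1572 CPM in macrophages alone, from 1462 to 1523 CPM at 45 min, from 1360.1 to 1521 CPM at 90 min and from 1303 to 1414 CPM at 180 min. Only the group at 180 min did not overlap that of macrophages alone. Its log2 change there was -0.15 (SE 0.038, adjusted p = 0.00116), and at 45 and 90 min the differences were not called, with 95% intervals of -0.10 to 0.05 and -0.11 to 0.04. With the length and GC trend removed, Lpl was instead called higher at 45 min (0.12, adjusted p = 0.0216). The fall between 90 and 180 min (-0.12, SE 0.038, adjusted p = 0.0274) was lost in 16 of 24 alternatives (adjusted p 0.00563 to 0.178).

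Between the times, 6 of the 10 genes differed at 90 min from 45 min (3 higher and 3 lower), where 28.1% of all genes were called (14.8% higher and 13.3% lower). At 180 min against 90 min 5 differed (3 higher and 2 lower), where 11.4% of all genes were called (4.45% higher and 6.97% lower). At 180 min against 45 min 8 differed (4 higher and 4 lower), where 36.4% of all genes were called (18.3% higher and 18.0% lower). The 3 genes with a called rise between 90 and 180 min were Ppard, Rxra and Mylip, and the 2 with a fall were Pparg and Lpl. Counted by groups that did not overlap at all, 3, 6 and 8 of the 10 genes stood apart from macrophages alone at 45, 90 and 180 min, where 16.9%, 21.2% and 28.6% of all genes did. Between times this held for 6 genes at 90 against 45 min (25.1% of all genes), 4 at 180 against 90 min (12.3%) and 7 at 180 against 45 min (32.3%).

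**Figure D3:**
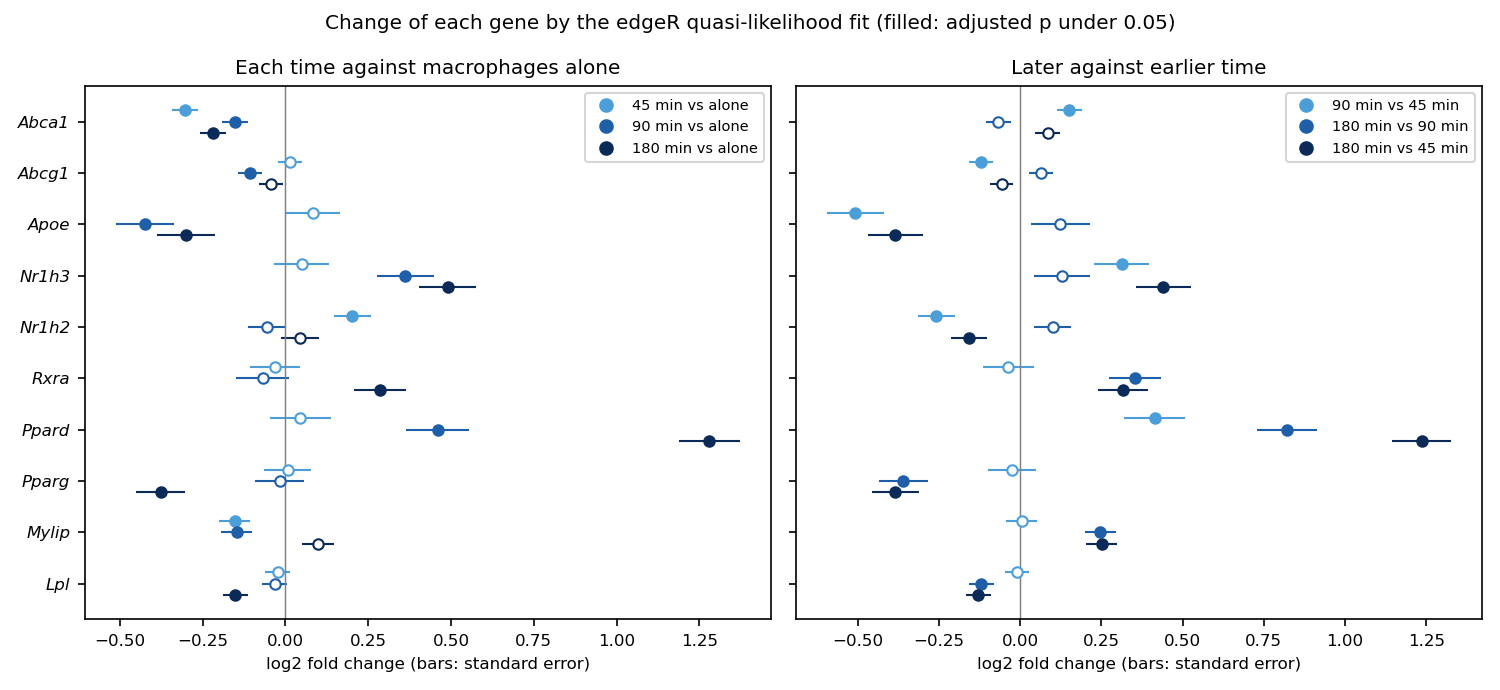
Log2 fold change of each gene with its standard error, for each time against macrophages alone (left) and for later against earlier times (right), with filled points where the adjusted p is under 0.05. Ppard at 180 min lies farthest to the right in both panels (1.28 and 1.24), and no gene falls by more than 0.51.

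For each member, the genes with the most similar levels across the 16 libraries were picked out. Likeness was the root mean square difference between log2 CPM values, each centred on its own mean, over 8261 protein-coding genes. It is a description of these libraries, in which genes share the depth of each library and the 4 groups. The genes named are the nearest ones, so they lie below the median gene by the way they were picked. The gene most like Ppard was Inf2 (0.127, where the median gene differed by 0.558), then Sema4b (0.138), and their log2 changes at 180 min were 1.22 and 1.02. For Abca1 they were Zzef1 (0.0339, median gene 0.187), Anapc1 (0.0424) and Sbno1 (0.0522). Closest to Nr1h3 was Socs3 (0.0945, median gene 0.290), and closest to Pparg was Casp4 (0.0661, median gene 0.218). For the other 6 the nearest genes were Trappc10 (Abcg1, 0.0356), Cnp (Apoe, 0.0903), Senp3 (Nr1h2, 0.0488), Slc43a2 (Rxra, 0.104), Dnmt1 (Mylip, 0.0574) and Etv6 (Lpl, 0.0380). The median gene differed from these 6 members, in the same order, by 0.1424, 0.2555, 0.1717, 0.2313, 0.1858 and 0.1506.

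Other known LXR targets were set beside the members. Of 12 tested, 1 was higher and 0 lower at 45 min, 1 higher and 5 lower at 90 min, and 2 higher and 4 lower at 180 min, with median log2 changes of 0.04, -0.21 and -0.14. Of all genes tested, 10.8%, 21.1% and 31.1% were called at these times, with medians of 0.00, 0.00 and 0.01. Scd2, a fatty acid desaturase, averaged 86.7 ± 7.82 CPM at 180 min against 139.5 ± 5.75 CPM in macrophages alone (SD, n = 4 each), a log2 change of -0.68 (SE 0.055, adjusted p = 3.65e-16). Mertk, a receptor for apoptotic cells, fell (-0.25, SE 0.053), as did Pltp, which transfers phospholipid between lipoproteins (-0.23, SE 0.050). Arl4c, a small GTPase that aids cholesterol transport to the membrane, went the other way, with 160.8 ± 9.26 CPM at 180 min and 112.7 ± 5.33 CPM in macrophages alone (0.51, SE 0.050, adjusted p = 6.76e-13). Pltp had been the 1 gene higher at 45 min (0.14, adjusted p = 0.0491), a call lost in 7 of 24 alternatives (adjusted p 0.0124 to 0.542).

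Of 15 PPAR targets tested besides the members, 3 were higher and 0 lower at 45 min, 3 higher and 3 lower at 90 min, and 4 higher and 2 lower at 180 min, with median log2 changes of 0.13, -0.07 and -0.03. The shares of all genes called were 10.8%, 21.1% and 31.1%, with medians of 0.00, 0.00 and 0.01. The 3 higher genes at 45 min and at 90 min were Fabp4, Fabp5 and Plin2, and these were 3 of the 4 at 180 min. Fabp4, a fatty acid carrier, had 29.6 ± 2.85 CPM at 180 min against 16.4 ± 1.04 CPM in macrophages alone (log2 change 0.84, SE 0.090, adjusted p = 1.29e-11). Its relative Fabp5, whose near-identical copies in the genome could share reads with it, had 518.4 ± 37.5 CPM at 180 min against 417.7 ± 9.66 CPM in macrophages alone (0.31, SE 0.042, adjusted p = 1.66e-08). Plin2, which coats lipid droplets, rose at 45 min by 0.20 (SE 0.037) and at 180 min by 0.14 (SE 0.037, adjusted p = 0.00285), and the rise at 180 min was not called once the length and GC trend was removed (0.06, adjusted p = 0.181). Angptl4, an inhibitor of Lpl, stood at 3.03 ± 1.02 CPM at 180 min against 1.48 ± 0.266 CPM in macrophages alone (1.01, SE 0.32, adjusted p = 0.0122). Of the other adipocyte markers looked at besides Fabp4, Adipoq had 1 count in all libraries and Lep and Cfd had 0.

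Genes that partner nuclear receptors or carry their signal were called lower more often than higher. Of 19 tested besides Rxra, 0 were higher and 8 lower at 45 min, 1 higher and 11 lower at 90 min, and 3 higher and 11 lower at 180 min, with median log2 changes of -0.13, -0.17 and -0.18. Over all genes tested, 10.8%, 21.1% and 31.1% were called at these times, with medians of 0.00, 0.00 and 0.01. Those called higher were 4.69%, 11.1% and 15.1% of all genes tested, and the rest of the called genes were lower. The acetyltransferase Ep300, a coactivator, had 273.7 ± 16.8 CPM at 180 min against 405.8 ± 7.63 CPM in macrophages alone (-0.57, SE 0.046, adjusted p = 4.52e-16). The steroid receptor coactivators Ncoa1 and Ncoa2 fell by 0.42 (SE 0.054) and 0.41 (SE 0.050) on the log2 scale. Rara, a retinoic acid receptor, rose to 41.2 ± 1.07 CPM at 180 min against 20.0 ± 1.45 CPM in macrophages alone (1.04, SE 0.083, adjusted p = 3.31e-16). The count of 8 at 45 min was 4 or 5 without any 1 library of macrophages alone or without library 3 or 4 of 45 min, and 5 with the length and GC trend removed.

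Among genes that handle sterol inside the cell, calls were mostly higher at 45 min and mostly lower at 180 min. Of 25 tested, 5 were higher and 1 lower at 45 min, 4 higher and 3 lower at 90 min, and 3 higher and 10 lower at 180 min. The median log2 changes of the list were 0.01, -0.08 and -0.08, so the list as a whole barely moved at 45 min. Over all genes tested, 10.8%, 21.1% and 31.1% were called in either direction, with medians of 0.00, 0.00 and 0.01. Gramd1a, a carrier of cholesterol to the endoplasmic reticulum, had 127.3 ± 9.03 CPM at 180 min against 71.2 ± 5.23 CPM in macrophages alone (0.84, SE 0.058, adjusted p = 8.41e-19), and its relative Gramd1b rose by 0.41 (SE 0.044). The endosomal sterol carrier Stard3 fell (-0.44, SE 0.053), as did the lysosomal lipase Lipa (-0.23, SE 0.037). Ch25h, which makes 25-hydroxycholesterol, an LXR ligand, was higher at 45 min (14.9 ± 2.89 against 10.4 ± 0.861 CPM in macrophages alone, log2 change 0.52, SE 0.12, adjusted p = 0.00124) and at 90 min (0.62, SE 0.12, adjusted p = 6.74e-05). At 180 min it averaged 10.05 ± 0.731 CPM.

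Receptors that take up lipoproteins, and partners of Lpl, gave 0 higher and 2 lower of 12 tested at 45 min, 3 and 3 at 90 min, and 5 and 3 at 180 min. The shares of all genes called in either direction were 10.8%, 21.1% and 31.1%. Lrp8, the receptor for apolipoprotein E and reelin, had 22.9 ± 1.62 CPM at 180 min against 8.07 ± 0.909 CPM in macrophages alone (1.51, SE 0.12, adjusted p = 2.25e-16). Furin, a protease that cleaves Lpl, rose by 0.52 (SE 0.047) and the sorting receptor Sorl1 fell by 0.69 (SE 0.091) on the log2 scale. Lrp1, a receptor for apolipoprotein E, fell at 45 min to 1034 ± 87.2 CPM against 1302 ± 76.2 CPM in macrophages alone (-0.33, SE 0.050, adjusted p = 1.68e-06). At 180 min, where it was singled out after its values were seen, it was higher, at 1647 ± 164 CPM, against the same 1302 ± 76.2 CPM (0.34, SE 0.050, adjusted p = 1.43e-07).

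The sterol regulatory element pathway raises cholesterol synthesis and uptake. Of 16 genes tested, 1 was higher and 0 lower at 45 min, 2 higher and 2 lower at 90 min, and 3 higher and 2 lower at 180 min, where 10.8%, 21.1% and 31.1% of all genes were called. Sqle, the squalene epoxidase, had 29.8 ± 0.715 CPM at 180 min against 20.7 ± 0.904 CPM in macrophages alone (0.52, SE 0.084, adjusted p = 8.45e-07). Srebf1, a factor of the pathway and itself an LXR target, was lower (-0.24, SE 0.065, adjusted p = 0.00326). Srebf1 and Angptl4 each stand in 2 of the 6 lists.

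**Figure D4:**
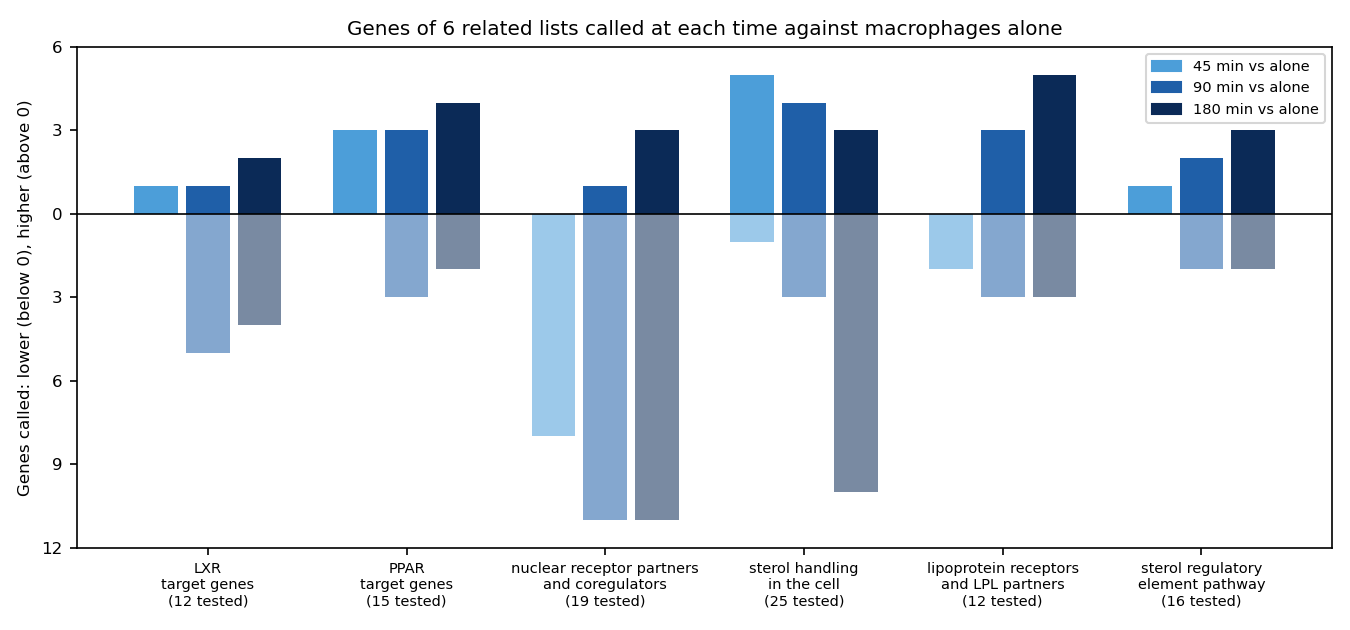
Number of genes called at an adjusted p under 0.05 in each of 6 related lists without the members, at 45, 90 and 180 min against macrophages alone, with higher genes drawn up in full colour and lower genes drawn down in a paler shade. Partners and coregulators have 11 lower genes at 90 min and at 180 min, and PPAR targets have more higher than lower genes at 45 min (3 and 0) and 180 min (4 and 2). Of all genes tested, 10.8%, 21.1% and 31.1% were called at 45, 90 and 180 min.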

How the data were processed

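Total RNA was measured in 16 libraries of 4 groups. The authors deposited raw counts per gene for all libraries, without normalization. Per the submitters' processing notes, STAR 2.7.9a, SAMtools and HTSeq were used with build mm39. The sources used here do not give settings, strand use, annotation release or the handling of human reads. Column names give the group but no replicate number, so library numbers are names in file order. Symbols, exon lengths and GC content came from GENCODE M21, made for the build before mm39, and promoters from RefSeq GRCm38.p6, so no printed position applies to the counts.

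Low genes were removed with filterByExpr of edgeR 4.0.16 in R 4.3.3 (minimum count 10, minimum total 15), and library sizes were adjusted by TMM. Values in CPM are counts relative to the adjusted library size. Differences were tested by quasi-likelihood in 1 edgeR model of all 16 libraries with a term for group, p-values were adjusted by Benjamini-Hochberg over 14168 genes, and calls were made under 0.05. Fold changes are unshrunken coefficients on the log2 scale, and each interval is a 95% interval. The biological coefficient of variation was 7.81%. Libraries of a group differed by more than sampling noise (chi-square per degree of freedom 3.90 to 9.88 over 24 pairs), so none was taken for a copy of another. The script was tested on simulated data. Alternatives were relative log expression scaling, DESeq2 1.42.0, no filter, only the 2 groups compared, thinning to the smallest total, protein-coding genes only, no mitochondrial genes, removal of a length and GC trend, and leaving out each library.

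The 10 genes, the related lists and the searched sequences were chosen with earlier results of these data known. From each list, at most 4 called genes with the smallest p per comparison were named, and some genes that these rules would name are not reported here. Listed genes with too few counts to test, such as Ppara, Rxrg, Pdk4 and Vldlr, were left out.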

Additional observations from a re-analysis of the deposited data

Results flagged for a closer look

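Among the 40 sets of 4 libraries (10 genes in 4 groups), 2 held a library whose gap to its nearest neighbour took more of the whole range than Dixon's 95% limit allows, and chance gives about 1 such set in 20. Nr1h2 had 80.1 CPM in library 3 of 45 min, where the other 3 libraries had 89.8 to 91.3 CPM. Lpl had 1520 CPM in library 1 of 45 min, where the other 3 had between 1460 and 1470 CPM to 3 digits. The share of the range taken by the gap was 0.863 in both. Without library 3 of 45 min the rise of Nr1h2 at that time was 0.26 on the log2 scale, against 0.20 with all libraries, and was called (edgeR, adjusted p = 0.00167).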

How the results depend on the processing

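Each of the 60 fold changes of the 10 genes was recomputed under 24 alternatives, 1440 values in all. Of these, 1394 kept their direction where called and their side of the threshold, 38 lost a call, 7 gained one and 1 reversed. Of the 35 calls, 27 were kept in all 24. The reversal was Lpl at 45 min against macrophages alone, 0.12 (adjusted p = 0.0216) with a length and GC trend removed and -0.02 without. The same setting ended the calls of Nr1h2 at 45 min and of Abca1 and Abcg1 at 90 against 45 min (0.08, adjusted p = 0.0740, and -0.08, adjusted p = 0.0528), and of Lpl at 180 against 90 min (-0.10, adjusted p = 0.0778). It added calls for Nr1h2 at 90 min against macrophages alone (-0.14, adjusted p = 0.0478) and Lpl at 90 against 45 min (-0.15, adjusted p = 0.00120). The cause was not tested. The call of Nr1h2 at 180 against 45 min was lost in 4 alternatives (adjusted p 0.00431 to 0.0906). Genes of the 10 called were 2 to 3 at 45 min, 5 to 7 at 90 min and 7 to 8 at 180 min against macrophages alone. Between times they were 5 to 6 (90 against 45 min), 4 to 5 (180 against 90 min) and 7 to 9 (180 against 45 min). All 10 changed at some time in each alternative where that test could be run, which left out DESeq2 and the fits of 2 groups.

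Over all genes, removal of the trend changed the split of calls at 45 min to 1109 higher and 504 lower, against 664 and 865 without. At 90 min it was 1375 and 2159 against 1573 and 1413, and at 180 min 1792 and 3037 against 2139 and 2265. Between times it was 1431 and 3099 against 2096 and 1888 (90 against 45 min) and 1912 and 3861 against 2596 and 2556 (180 against 45 min). Of the related lists, 5 had a count at 45 min that moved by over 1.5 times, with 4 to 9 of 19 partners and coregulators called, 0 to 2 LXR targets, 3 to 6 PPAR targets, 1 to 4 lipoprotein genes and 1 to 3 sterol regulatory genes. Sterol handling genes called at 90 min were 11 with the trend removed and 7 without. No paired analysis was possible because the columns carry no replicate numbers, so no replicate block was fitted. Depth limits the genes of few counts, such as Angptl4.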
